A study of Rattus norvegicus with 19 samples.

Results

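The genes described here encode the Polycomb repressive complexes and one enzyme that removes their mark. They are the PRC2 genes Ezh1, Ezh2, Eed and Suz12, the PRC1 genes Bmi1, Ring1, Rnf2, Cbx6 and Cbx7, and the H3K27 demethylase gene Kdm6b, 10 in all. A probe was taken as theirs when its RefSeq accession stood under the gene's symbol in a current rat gene table. A probe was named in this way for 8 of the 10 genes, all 8 were well above background on every array, and they stand among 12789 genes tested. Suz12 and Rnf2 were not matched to a probe and were not analysed here.

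The study measured mRNA on Agilent single-colour arrays, 1 per sample, in normal mammary gland (6 samples) and mammary carcinoma (13 samples). Both groups came from female rats of 1 genetic background, F1 hybrids between Sprague-Dawley and Copenhagen rats. The series describes the carcinomas as induced by radiation. The protocol states that rats received no treatment or whole-body gamma rays (4 Gy) at 7 weeks of age. Which of the 6 normal glands had been exposed is not stated. Samples were grouped as tumour or gland, and exposure may differ between these groups too. Tumour status and exposure therefore cannot be told apart here, and an effect of radiation was not tested. The age at collection is not given in the sources used here. The labels do not say that each sample came from a different rat, so p-values measure the spread between these samples.

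PRC2 places methyl groups on lysine 27 of histone H3 through either of its catalytic subunits, EZH1 or EZH2, with EED and SUZ12 as core partners. PRC1 reads that mark through chromodomain proteins of the CBX family and ubiquitinates histone H2A through RING1 or RNF2 paired with a PCGF protein such as BMI1. KDM6B removes H3K27 methylation. In the mammary gland these complexes are known for repressing developmental and cell cycle inhibitor genes in progenitor cells.

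The values below are log2 intensities from which each array's 75th percentile was subtracted, so 0 is that percentile, and a change is carcinoma minus normal gland ± SE with n = 13 and 6. Each test is limma's moderated test over all 12789 genes, with Benjamini-Hochberg adjustment and a threshold of 0.05. Carcinoma arrays were brighter, with 75th percentiles of 485 to 1428 intensity units against 295.5 to 673 in normal glands. The epithelial markers Krt18 (keratin 18) and Epcam were detected above background on all 19 arrays. All 16 adipocyte markers tested fell, with list scores (the mean of a list's log2 values after centring each gene) of 3.15 to 4.27 in normal glands and -2.38 to -1.16 in carcinomas, as did 9 of 11 endothelial, 7 of 13 macrophage, 8 of 13 T and NK cell and 5 of 6 B cell markers. Of 17 luminal markers 5 rose and 0 fell, with scores of -0.77 to 0.08 in normal glands and -1.02 to 0.52 in carcinomas. In such bulk samples, fewer cells of a type and less RNA per cell cannot be told apart.

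Of the 8 genes tested, Ezh2, Cbx6 and Kdm6b rose in carcinomas, Bmi1 fell, and Ezh1, Eed, Ring1 and Cbx7 did not pass the test. These 4 of 8 stand beside 23.0% of all genes tested, 9.73% higher and 13.2% lower. The median change of the 8 genes was 0.35, beside 0.01 over all genes. In none of the 8 were the groups fully apart, a pattern found in 2.47% of all genes.

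**Figure D1:**
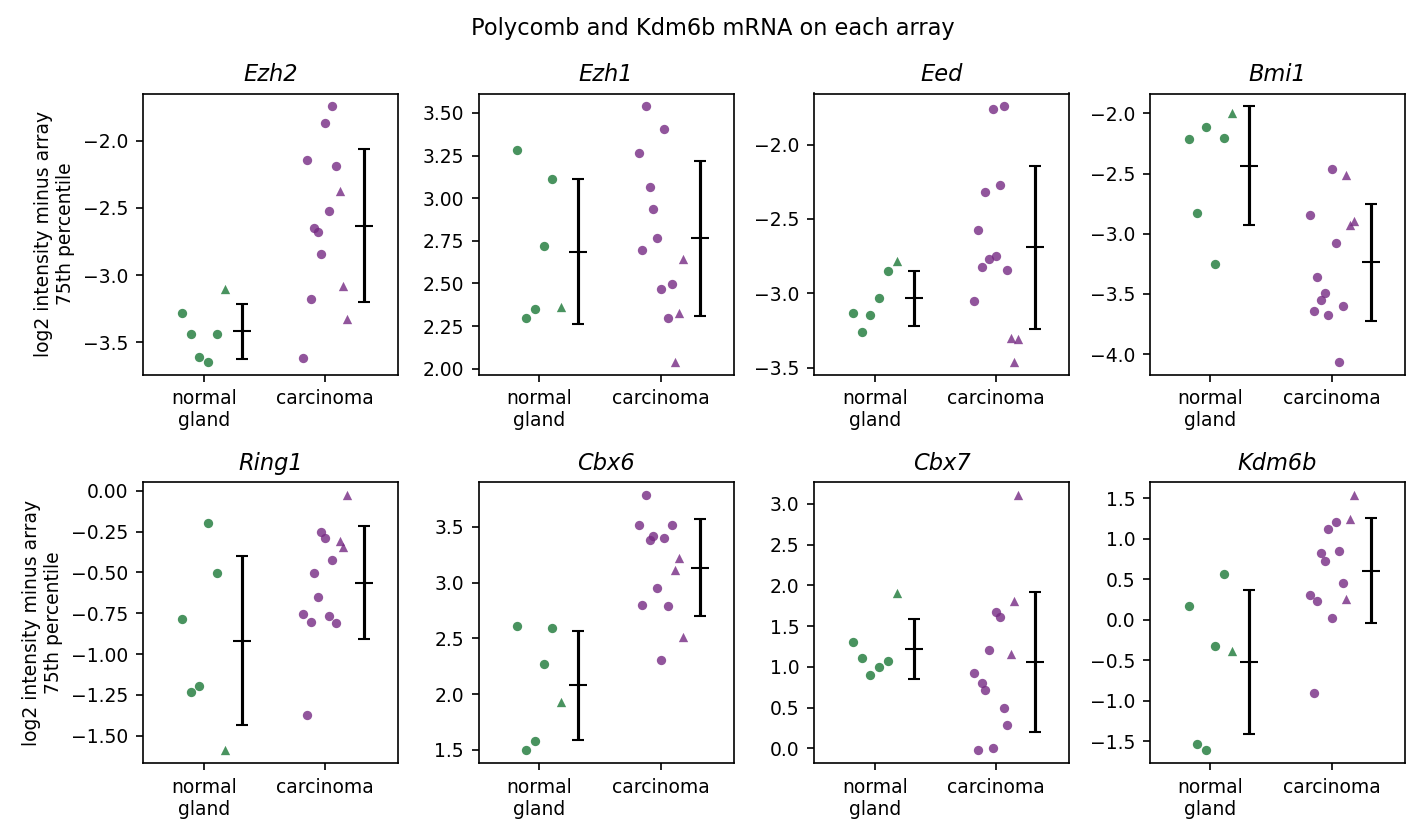
Log2 intensity minus the array's 75th percentile (y axis of each panel) for the 8 genes in normal glands (green) and carcinomas (purple). Each symbol is 1 array, triangles are samples with a letter code and circles those with a number code, and the bars show mean ± SD. For Cbx6, 11 of 13 carcinomas lie above the highest normal gland, and for Ezh2 10 of 13 do, while Bmi1 lies below the lowest normal gland in 7.

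Ezh2 encodes the PRC2 methyltransferase of dividing cells. Its value was -3.65, -3.44 and -3.10 (lowest, median and highest) in normal glands and -3.61, -2.65 and -1.74 in carcinomas. The normal glands lay close together, 10 of 13 carcinomas lay above all of them, and carcinomas 1, 3 and 13 were the lowest. The change was 0.79 ± 0.25, or 1.73-fold (adjusted p = 0.0290, limma). The carcinomas were also more spread, with an SD of 0.57 against 0.20. The probe has 1 spot on each array and is dim, with intensities of 24.2 to 69.3 in normal glands and 92.4 to 275 in carcinomas.

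The size of this rise moved with the processing and with the slide. With normexp background correction, which moved the median change of all genes to -0.37, it was 0.09 ± 0.20 (adjusted p = 0.749, limma), or 0.46 above that median, and with quantile normalization it was 0.87. Within slides 1, 2 and 3 it was 0.54, 1.27 and 0.40. It did not pass without normal gland 2, 3 or 4 (adjusted p = 0.0602, 0.0719 and 0.0604, limma). Normexp was run with an offset of 50 intensity units added to every spot, beside Ezh2 intensities of 24.2 to 69.3 in normal glands. The part of this offset in the lower normexp value was not tested.

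The promoter window of Ezh2 is shown because Ezh2 is a known target of E2F factors, the regulators of S phase genes, and because its level followed the cell cycle genes here. The window is RefSeq's on assembly GRCr8, chr4:77687134-77687433, minus strand, from 250 bases before to 50 after the gene start. Capitals mark matches to E2F-type letters (TTTCCCGC, TTTCGCGC, TTTGGCGC or TTTGCCGC) and to CCAAT, on either strand.
Ezh2: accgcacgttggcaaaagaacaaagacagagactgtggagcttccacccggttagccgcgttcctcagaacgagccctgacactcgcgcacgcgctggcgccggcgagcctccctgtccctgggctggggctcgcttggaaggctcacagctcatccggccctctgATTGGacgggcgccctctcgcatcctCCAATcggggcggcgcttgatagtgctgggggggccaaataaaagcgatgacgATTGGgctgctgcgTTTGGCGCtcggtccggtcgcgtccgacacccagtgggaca
It holds 1 E2F-type match, TTTGGCGC, at base 10 after the start, and 3 CCAAT matches. Among 33469 rat promoter windows of this length, 2.14% hold an E2F-type match and 37.5% a CCAAT. The Ezh2 window has 30 CpG dinucleotides, more than in 89.7% of windows, and every E2F-type motif searched contains a CpG. The share among windows as rich in CpG was not computed, and the part of E2F factors in these data was not tested. Of the other genes with a window in the table, Suz12 alone held an E2F-type match. TTTGAA or TTCGAA (in 19.7% of windows), GGGGCGGGG (9.73%) and an NRF1-type motif (0.852%) were searched too, on both strands, and had no match in the Ezh2 window.

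Across the 13 carcinomas Ezh2 rose with a cell cycle score, the mean of 35 centred proliferation genes that do not include it. Pearson's r was 0.88 and Spearman's rho 0.90 (permutation p = 0.000130 and 0.000110, two-sided, adjusted to 0.00104 and 0.000880 over 8 relations), and r was 0.82 without carcinomas 1 and 13. In the 10 number-coded carcinomas r was 0.89 (adjusted permutation p = 0.00488). With slide as a block, which sets each carcinoma against the mean of its slide, r was 0.88 (permutation within slides, adjusted p = 0.000400). No r is given for a single slide, as each held only 4 or 5 carcinomas. Of the 35 cell cycle genes 15 rose and 0 fell in carcinomas, with scores of -1.19 to 0.02 in normal glands and -1.37 to 1.69 in carcinomas. With this score as a covariate the change of Ezh2 was 0.28 ± 0.22 (adjusted p = 0.410, limma). Between Ezh2 and array brightness (log2 of the 75th percentile) r was -0.55 and rho -0.54 (adjusted permutation p = 0.129 and 0.127), and r was -0.34 without carcinomas 7 and 10. With normexp r was -0.66 and passed (adjusted permutation p = 0.0400), while rho was -0.59 and did not (0.149). That r was -0.43 without carcinomas 7 and 10.

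As a description, the 5 genes whose values followed Ezh2 most closely over the 13 carcinomas, of 9121 compared, were Bub1 (r = 0.95), Knstrn (0.95), Mad2l1 (0.94), Cenpt (0.94) and Mcm10 (0.92). Bub1 and Mad2l1 encode spindle checkpoint proteins, Knstrn and Cenpt proteins of spindle and kinetochore, and Mcm10 a replication initiation factor. They were chosen for this likeness, so it is not tested.

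Ezh1 encodes the PRC2 methyltransferase found mostly in non-dividing cells. Its value was 2.30, 2.54 and 3.28 in normal glands and 2.04, 2.70 and 3.54 in carcinomas. The ranges overlap almost fully, with 9 of 13 carcinomas inside the range of the glands. The change was 0.08 ± 0.22 (adjusted p = 0.833, limma), with a 95% interval of -0.38 to 0.53, and a second, dimmer probe gave -0.02 ± 0.35. The direction turned to -0.26 within slide 2 and to -0.26 with array brightness as a covariate.

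Among carcinomas Ezh1 was set against Ezh2 and the cell cycle score. Over all 13 carcinomas r between Ezh1 and the cell cycle score was -0.37 (rho = -0.52, adjusted permutation p = 0.312 and 0.127), and between Ezh2 and Ezh1 it was -0.50 (rho = -0.51, adjusted permutation p = 0.168 and 0.127). With slide as a block these were -0.41 and -0.46, and neither passed (permutation within slides, adjusted p = 0.361 for each). In the 10 number-coded carcinomas r was -0.86 for Ezh1 with the cell cycle score (adjusted permutation p = 0.00488) and -0.80 for Ezh2 with Ezh1 (0.0149). These became -0.90 and -0.91 without the 2 carcinomas farthest from the median. The remaining carcinomas, 11, 12 and 13, carry letter codes and lie on slide 3, and they had Ezh1 values of 2.04, 2.33 and 2.64, below the median of all carcinomas. The difference between the code groups was not tested, as 3 letter-coded carcinomas are too few for a correlation.

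**Figure D2:**
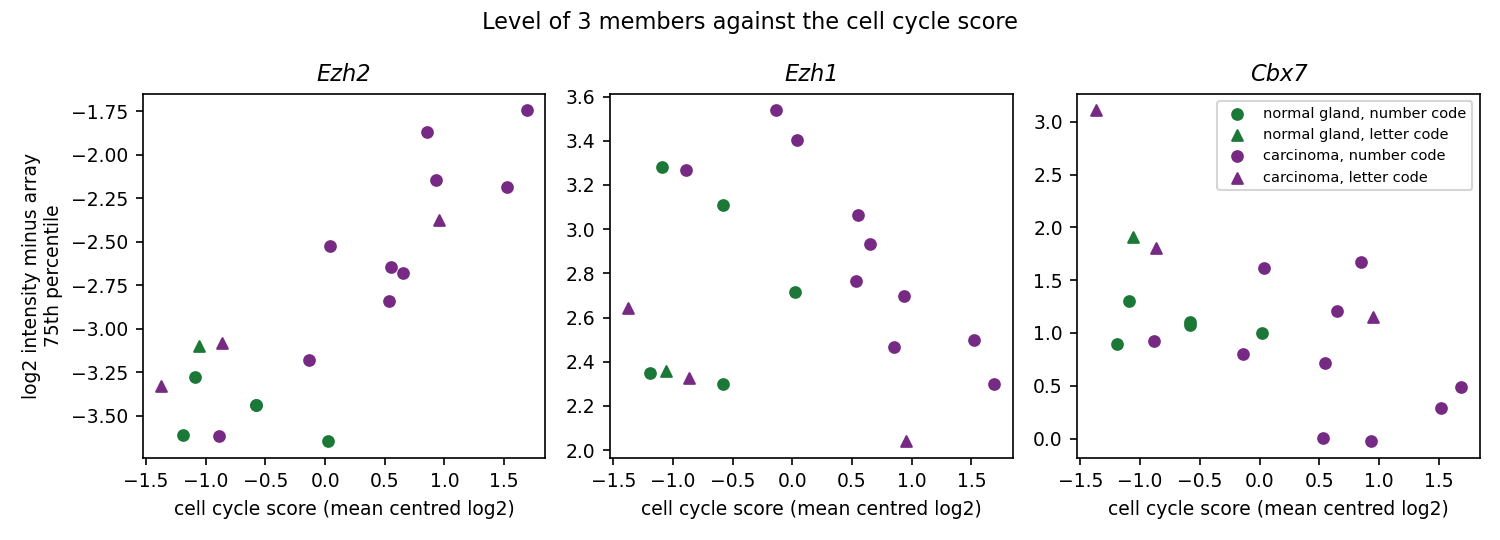
Log2 intensity minus the array's 75th percentile of Ezh2, Ezh1 and Cbx7 (y axis) against the cell cycle score (x axis, mean centred log2 value of 35 genes), 1 symbol per array. Across carcinomas (purple) Ezh2 climbs with the score (r = 0.88). Ezh1 falls with it among number-coded carcinomas (circles, r = -0.86), while over all 13 carcinomas r was -0.37 and did not pass. Cbx7 has its highest value in carcinoma 13, which has the lowest score.

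Within an array, the log2 difference Ezh2 minus Ezh1 does not depend on how arrays are scaled to each other. Its mean was -6.10 ± 0.46 (SD, n = 6) in normal glands and -5.40 ± 0.89 (SD, n = 13) in carcinomas, a shift of 0.71 (exact permutation test over 27132 splits, two-sided, p = 0.0866, adjusted to 0.130 over 3 differences). Within slides 1, 2 and 3 it was 0.07, 1.53 and 0.18. Of the carcinomas 6 of 13 lay above all normal glands, and the shift did not pass. With normexp correction it was -0.08. The level of such a difference rests on the probes, so it does not compare the amounts of 2 mRNAs. The Ezh1 probe used averaged 2.69 in normal glands and the second Ezh1 probe -4.54. The shift with the second probe was not computed.

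Eed encodes the PRC2 subunit that binds the methylated histone. Its value was -3.26, -3.08 and -2.79 in normal glands and -3.46, -2.77 and -1.74 in carcinomas. Carcinomas spread to both sides of the glands, with 7 above and 3 below them, and an SD of 0.55 against 0.19. The 3 below were the letter-coded carcinomas 11, 12 and 13, at -3.30, -3.46 and -3.31. The change of 0.34 ± 0.24 did not pass (adjusted p = 0.331, limma; 95% interval -0.16 to 0.85) and was -0.15 with normexp correction.

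Bmi1 encodes a PCGF subunit of PRC1 known for self-renewal of mammary progenitors. Its value was -3.25, -2.21 and -1.99 in normal glands and -4.07, -3.36 and -2.46 in carcinomas. Normal glands 1, 3, 5 and 6 lay above every carcinoma, while normal glands 2 and 4 lay within their range. The change was -0.80 ± 0.25, a 1.75-fold fall (adjusted p = 0.0263, limma), and it was -0.95, -0.71 and -1.01 within slides 1, 2 and 3. It kept its sign in each of 39 other settings tried, of which 19 left out 1 array. Settings of filter and probe choice could not move it, as Bmi1 has 1 probe, well above background on every array. The change did not pass without normal gland 1, 3, 5 or 6 (adjusted p = 0.0529 to 0.0741, limma). With the cell cycle score as a covariate it was -0.47 ± 0.27 (adjusted p = 0.256, limma).

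Ring1, one of the alternative ubiquitin ligases of PRC1, differed less. Its value was -1.59, -0.99 and -0.20 in normal glands and -1.37, -0.51 and -0.02 in carcinomas. All but 1 carcinoma lay inside the range of the glands. The change was 0.36 ± 0.21 (adjusted p = 0.230, limma; 95% interval -0.08 to 0.79).

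Cbx6 and Cbx7 lie close to each other on chromosome 7 and both encode chromodomain readers. Their promoter windows on GRCr8 are at chr7:113263364-113263663 (Cbx6) and chr7:113358297-113358596 (Cbx7), both on the minus strand, and are shown to set the paralogs beside each other. Capitals mark the same E2F-type and CCAAT letters.
Cbx6: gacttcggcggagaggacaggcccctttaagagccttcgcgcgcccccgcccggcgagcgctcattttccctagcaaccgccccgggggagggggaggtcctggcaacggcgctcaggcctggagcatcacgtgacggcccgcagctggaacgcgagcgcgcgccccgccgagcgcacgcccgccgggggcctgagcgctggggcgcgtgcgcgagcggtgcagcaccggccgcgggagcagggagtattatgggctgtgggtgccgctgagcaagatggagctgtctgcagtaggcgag
Cbx7: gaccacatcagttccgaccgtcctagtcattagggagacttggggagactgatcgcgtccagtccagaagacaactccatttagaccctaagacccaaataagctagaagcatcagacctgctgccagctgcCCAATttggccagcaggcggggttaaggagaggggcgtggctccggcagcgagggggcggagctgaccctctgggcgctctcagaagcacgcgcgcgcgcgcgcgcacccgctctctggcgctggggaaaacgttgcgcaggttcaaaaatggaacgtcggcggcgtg
Neither window holds an E2F-type match, and Cbx7 holds 1 CCAAT and 1 TTTGAA. The Cbx6 window has 38 CpG dinucleotides and the Cbx7 window 26, against a median of 7 over all windows in the table. The Ezh2 window shown above has 30.

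Cbx6 was 1.50, 2.10 and 2.61 in normal glands and 2.31, 3.22 and 3.79 in carcinomas. Carcinomas 7 and 13 alone reached down into the range of the glands. The change was 1.05 ± 0.22, or 2.08-fold (adjusted p = 0.00233, limma). It passed without each array in turn (adjusted p = 0.000851 to 0.0105, limma), and it was 1.49, 0.43 and 1.22 within slides 1, 2 and 3. A second probe, well above background on 3 of 6 normal gland and 12 of 13 carcinoma arrays, gave 0.42 ± 0.26, which missed the threshold (limma adjusted p = 0.271 over all probes).

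Cbx7, also a chromodomain gene, was 0.90, 1.09 and 1.91 in normal glands and -0.03, 0.93 and 3.11 in carcinomas. Of the carcinomas 6 lay below all glands, 6 within their range, and carcinoma 13 above. The change was -0.16 ± 0.35 (adjusted p = 0.787, limma; 95% interval -0.88 to 0.57), with an SD of 0.86 in carcinomas and 0.37 in glands. Across the carcinomas Cbx7 fell with the cell cycle score (r = -0.67, rho = -0.53, adjusted permutation p = 0.0447 and 0.127), but r was -0.54 without carcinomas 1 and 13 and -0.35 in number-coded carcinomas (adjusted permutation p = 0.375). With slide as a block r was -0.69 (adjusted permutation p = 0.111), so that the relation did not pass there nor without the letter-coded carcinomas. With the score as a covariate the change of Cbx7 turned to 0.48.

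The within-array difference Cbx7 minus Cbx6 was -0.86 ± 0.59 (SD, n = 6) in normal glands and -2.07 ± 1.08 (SD, n = 13) in carcinomas, a shift of -1.21. It did not pass after adjustment (exact permutation p = 0.0212, adjusted to 0.0635). Carcinoma 13, with 0.60, was the only one above all glands. Without it the shift was -1.43 (exact permutation, adjusted p = 0.00372), and without carcinoma 7 it was -1.33 (0.0322). These were the only 2 of the 19 fits leaving out 1 array that passed (exact permutation, adjusted p up to 0.127). In number-coded samples the shift was -1.39 (exact permutation, adjusted p = 0.0110). Within slides 1, 2 and 3 it was -1.86, -0.74 and -1.54. The level of this difference also rests on the probes, as the Cbx6 probe used averaged 2.08 in normal glands and the second -4.66. The shift with the second Cbx6 probe was not computed. The genes closest to Cbx7 over the carcinomas were Adipor1 (r = 0.90), Fbxo17 (0.88), Vmac (0.87), Cbll1 (0.87) and Tp63 (0.87), given as a description.

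Kdm6b encodes a demethylase that opposes PRC2. Its value was -1.62, -0.36 and 0.57 in normal glands and -0.91, 0.73 and 1.54 in carcinomas. Normal glands 2 and 3 were the lowest of all arrays, carcinoma 2 was the lowest carcinoma, and 7 of 13 carcinomas lay above all glands. The change was 1.13 ± 0.34, or 2.18-fold (adjusted p = 0.0215, limma), and it was 1.08, 0.58 and 1.33 within slides 1, 2 and 3. Without normal gland 2 or 3 it was 0.92 and 0.91 and did not pass (adjusted p = 0.0793 and 0.0820, limma), nor did it in number-coded samples (1.03, adjusted p = 0.0557, limma). With the luminal score as a covariate it was 0.76 ± 0.37 (adjusted p = 0.180, limma).

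Kdm6b was also set beside 16 immediate early genes, which respond fast to stimuli and to tissue handling. By limma 0 of the 16 passed, beside 23.0% of all genes. An unadjusted p under 0.05 was found for 2 of the 16, beside 4544 of all 12789 genes (limma). The score of the 16 was -0.02 to 0.20 in normal glands and spread from -1.06 to 1.22 in carcinomas. Across carcinomas r between Kdm6b and the score was -0.09 (rho = -0.12, adjusted permutation p = 0.777 and 0.694), and 0.06 with slide as a block (0.863). In number-coded carcinomas r was -0.72 (adjusted permutation p = 0.0357) and -0.38 without carcinomas 2 and 9. Over all carcinomas r was -0.15 when the 2 with the farthest scores, 2 and 13, were left out. With slide as a block and with normexp these 2 were carcinomas 11 and 13, and r without them was -0.82 in each. The values without 2 carcinomas were not tested. The part of tissue handling in the change of Kdm6b was not tested. The genes closest to Kdm6b over the carcinomas were Ubr2 (r = 0.89), Vill (0.89), Acvr2b (0.89), Slc24a3 (0.89) and Nemf (0.88), again as a description. Kdm6b and Ezh2 were thus both higher in carcinomas. The within-array difference Ezh2 minus Kdm6b was -2.90 ± 0.84 (SD, n = 6) in glands and -3.24 ± 1.01 (SD, n = 13) in carcinomas, a shift of -0.34 (exact permutation p = 0.485, adjusted 0.485). The shift was -0.54, 0.69 and -0.93 within slides 1, 2 and 3, -0.88 with normexp (exact permutation p = 0.0554, adjusted 0.0831) and -0.09 in number-coded samples. Leaving out 1 array gave -0.56 (normal gland 5) to -0.14 (normal gland 2), with -0.16 without normal gland 3 and -0.20 without carcinoma 13.

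**Figure D3:**
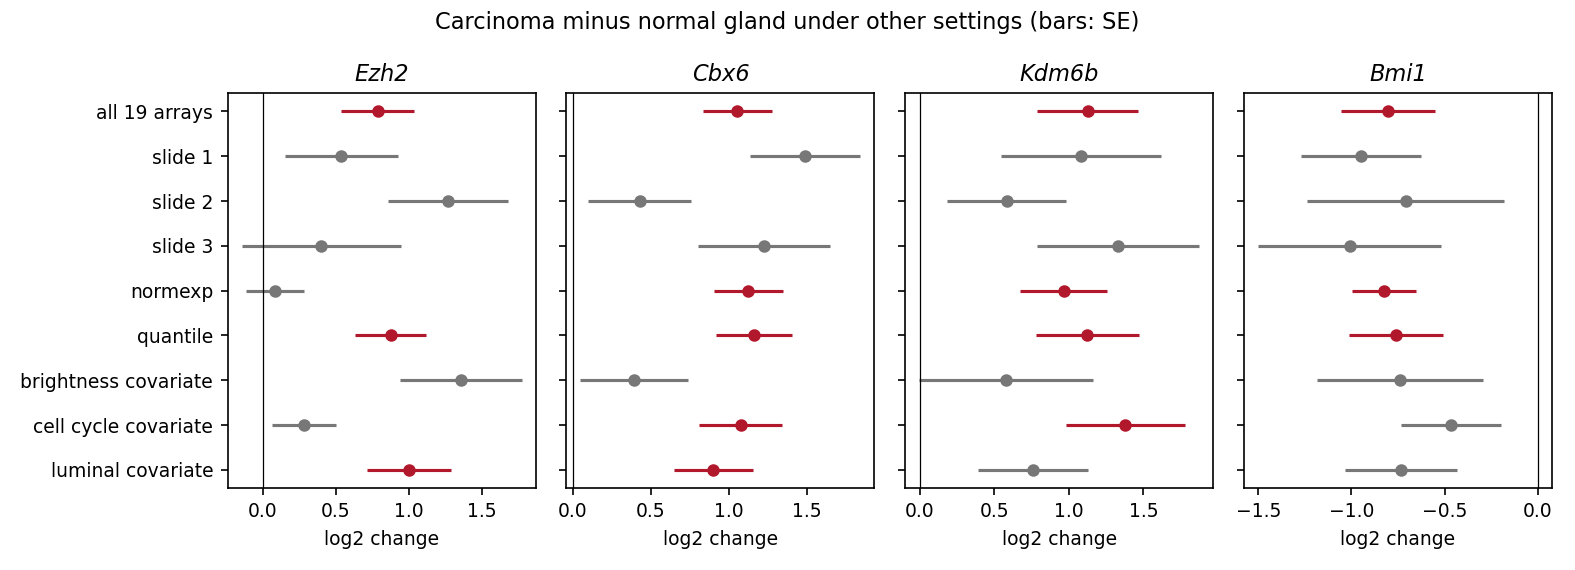
Log2 change, carcinoma minus normal gland (x axis), of the 4 genes that passed, on all 19 arrays, within each slide, with other normalizations and with a covariate (y axis). Points are estimates, bars 1 SE, and red marks adjusted p under 0.05. Every estimate shown keeps its sign, and with normexp Ezh2 stands at 0.09, while Cbx6 at 0.39 with array brightness is its smallest value.

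Array brightness differed between the groups and moved with these results. With log2 of the 75th percentile as a covariate the changes were 1.36 ± 0.42 for Ezh2, 0.39 ± 0.35 for Cbx6, 0.58 ± 0.58 for Kdm6b and -0.74 ± 0.45 for Bmi1, and none passed by limma (adjusted p = 0.121, 0.596, 0.649 and 0.450). In that fit 11 genes were higher and 174 lower of all tested. The part of brightness, and of the adipocyte, endothelial and immune markers that fell, in the differences between groups was not tested further.

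Other genes of the complexes rose more often than they fell. Of 26 other Polycomb genes tested, 9 rose, 1 fell and 16 did not pass, beside 9.73% higher and 13.2% lower among all genes, and their median change was 0.42. The 26 come from a list of 37. With normexp 5 rose and 3 fell, with a median of 0.16 where all genes had -0.37, and with the cell cycle score as a covariate 5 rose.

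In PRC2, of 6 genes 1 rose, Rbbp7 (0.87 ± 0.21, adjusted p = 0.00678, limma), a histone chaperone shared with other complexes. Its partner paralog Rbbp4 (-0.44 ± 0.20) and the accessory genes Mtf2 (0.43 ± 0.20), Phf19 (0.41 ± 0.40), Phf1 (0.04 ± 0.32) and Epop (-0.62 ± 0.25) did not pass.

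In PRC1, of 20 genes 8 rose and 1 fell. The largest rises were in Bcorl1 (1.35 ± 0.23) and Bcor (1.07 ± 0.35), corepressors of a variant PRC1, in Pcgf2 (1.22 ± 0.20) and in the polyhomeotic gene Phc1 (1.20 ± 0.31). Pcgf2 encodes the closest relative of BMI1. It was -4.21, -3.61 and -3.05 in normal glands and -2.75, -2.32 and -1.99 in carcinomas, so that every carcinoma lay above every gland, as in 0.540% of all genes (adjusted p = 0.000307, limma). With normexp its change was 0.31 and did not pass (adjusted p = 0.0793, limma). E2f6, a repressor of E2F sites that joins a variant PRC1, fell (-0.90 ± 0.23, adjusted p = 0.00781, limma). Bcor lost its call when any of 5 arrays was left out, those of normal glands 2, 3 and 6 and carcinomas 6 and 9 (limma adjusted p = 0.0505 to 0.106), and with normexp (0.0604), and Phc1 did not pass with normexp (0.0518). Kdm2b, a DNA-binding subunit of a variant PRC1 and 1 of the 8 that rose (0.58 ± 0.20, adjusted p = 0.0468, limma), lost its call in 13 of the 19 fits that left out 1 array (limma adjusted p up to 0.134). It is named for this, after its values were seen. The 6 fits in which it kept the call were those without normal gland 1 or 6 or carcinoma 2, 11, 12 or 13.

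**Figure D4:**
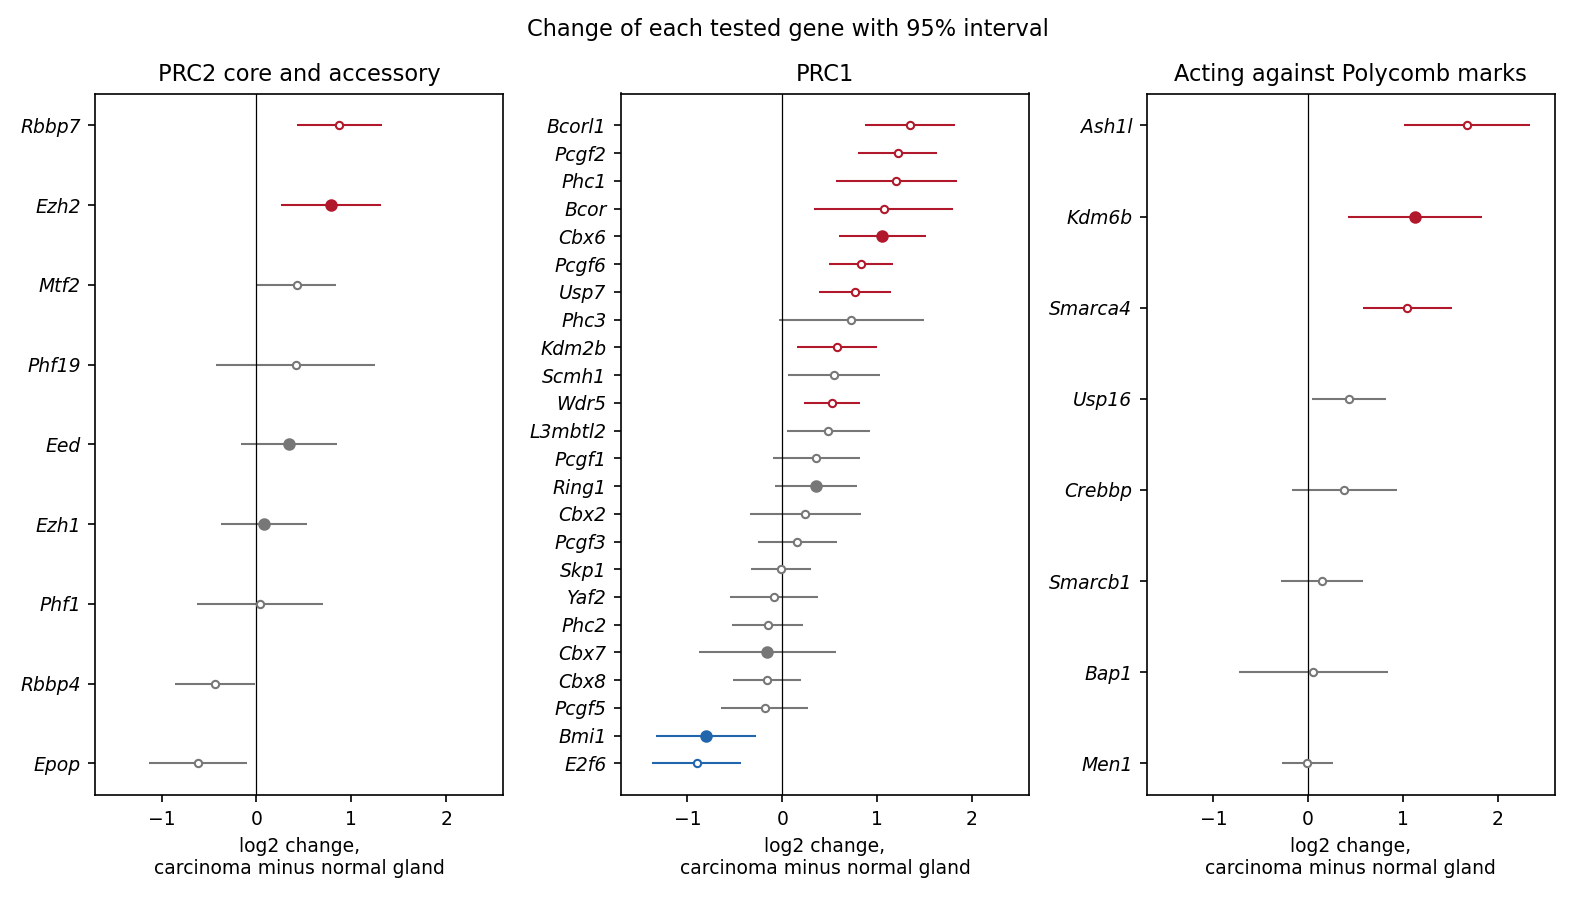
Log2 change, carcinoma minus normal gland, with its 95% interval (x axis) for each tested gene of PRC2, PRC1 and the genes acting against Polycomb marks (y axis). Filled points are the 8 genes of the main set, open points the other listed genes, red those that rose, blue those that fell and grey those that did not pass. In the PRC1 panel Bcorl1 (1.35) and Pcgf2 (1.22) lie at the top, and Bmi1 (-0.80) and E2f6 (-0.90) at the bottom.

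Genes whose products act against Polycomb marks gave 2 rises and 0 falls among the 7 tested of 18 listed, beside 9.73% higher and 13.2% lower among all genes, with a median of 0.38. That median was -0.34 within slide 3, 0.04 with normexp, 0.14 with probes above background on all arrays, 0.25 on the first scan day and 0.23 without normal gland 4, and 0.74 within slide 2. The rises were in Ash1l (1.67 ± 0.32), a histone methyltransferase of the Trithorax type, and Smarca4 (1.04 ± 0.23), the ATPase of the SWI/SNF remodeller. Ash1l was well above background on 2 of 6 normal gland arrays, and with normexp its change turned to -0.19. Of the 5 that did not pass, Bap1, which removes the PRC1 mark, gave 0.05 ± 0.38, and Men1 -0.01 ± 0.13.

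Genes that are textbook targets of Polycomb repression moved in both directions. Of 15 HOX genes tested, from 39 listed, 4 fell, 0 rose and 11 did not pass, beside 13.2% lower and 9.73% higher among all genes. Those that fell were Hoxa7 (-3.14 ± 0.48), Hoxb7 (-2.48 ± 0.32), Hoxd9 (-2.06 ± 0.28) and Hoxd10 (-1.22 ± 0.42, adjusted p = 0.0424, limma). For the first 3 every carcinoma lay below every gland, as in 1.93% of all genes. Only 3 of the 15, Hoxb7, Hoxd9 and Hoxd4, were well above background on every array, so Hoxa7 was not among them. Of the 15, 8 were well above background on fewer than 3 of the 6 normal glands. The median of the 15 was -0.56. It was 0.00 within slide 2, -0.91 within slide 3, -0.18 with array brightness as a covariate and -2.06 over the 3 genes above background on all arrays. With array brightness as a covariate 2 HOX genes fell, and with normexp 14 did, at a median of -0.86 where all genes had -0.37. Hoxd10 lost its call without any of 9 single arrays, normal glands 2, 3, 5 and 6 and carcinomas 4, 7, 8, 9 and 10 (adjusted p = 0.0508 to 0.123, limma).

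The CDK inhibitor gene Cdkn2a, the best known Polycomb target in cell cycle control, rose by 2.66 ± 0.55 (adjusted p = 0.00227, limma). It was -3.46, -3.32 and -2.28 in normal glands and -3.02, -0.30 and 2.76 in carcinomas. Its neighbour Cdkn2b rose by 2.32 ± 0.47 (adjusted p = 0.00175, limma), from -5.17, -3.90 and -3.02 to -3.68, -1.82 and 0.84. Most carcinomas stood above all glands for each gene, although the ranges overlap. Cdkn1a, the p53 target p21, fell (-1.40 ± 0.29, adjusted p = 0.00240, limma), but gave -0.50 without passing when all its probes were averaged (adjusted p = 0.170, limma). The imprinted Cdkn1c gave -0.71 ± 0.59 without passing (adjusted p = 0.417, limma).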

How the data were processed

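RNA of 6 normal glands and 13 carcinomas was hybridised to 1 array each (Cy3). Per the file headers and the submitters' processing notes, the authors read the scans with Agilent Feature Extraction 10.7.3.1, and the deposited intensity of each spot is background-subtracted and detrended. The authors also deposited log2 values. Checked here, they are the mean log2 intensity of a probe's unflagged spots less 1 constant per array, and the values used here differ from them by -0.54 to -0.43.

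Control spots and spots marked as uneven or outliers were left out, each array's 75th percentile of log2 intensity was subtracted and spots were averaged. Of 30367 probes 18005 were named through accessions, for 15168 genes. A probe was kept when well above background (at least 0.5 of its spots) on at least 6 arrays, and the brightest kept probe of a gene was used. Tests used limma 3.58.1 in R 4.3.3 and were checked on simulated data. The planned difference Ring1 minus Rnf2 could not be computed. Slides 1, 2 and 3 held 3, 2 and 1 normal glands and 4, 4 and 5 carcinomas, and slide 2 was scanned on another day. The genes and lists were chosen with earlier results of these data known. Named were all 10 genes, up to 4 changes per direction of each pathway list, and the 5 genes most like Ezh2, Cbx7 and Kdm6b. Genes that did not pass are named outside this rule. They are all of those in the other PRC2 and CDK inhibitor lists, and Bap1 and Men1 of 5 acting against Polycomb marks. Alternatives covered background correction, normalization, filter, probe choice, flags, slide, scan day, sample codes, replicate numbers, array weights, covariates and each array left out.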

Additional observations from a re-analysis of the deposited data

How the results depend on the processing

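Values refer to limma's fit unless named otherwise. Over all genes, 1244 rose and 1692 fell. The counts were 153 and 534 within slide 1, 45 and 267 within slide 2, 0 and 31 within slide 3, 11 and 174 with array brightness, 669 and 999 with the luminal score and 662 and 1104 with the cell cycle score as a covariate. Array weights gave 1868 higher, the first scan day alone (added after seeing the data) 673 higher and normexp 5263 lower, and leaving out 1 array gave 664 to 1440 higher and 1087 to 1830 lower. Of the 8 Polycomb and demethylase genes 3 rose and 1 fell. Within each slide and with brightness 0 rose and 0 fell, with the luminal or cell cycle score 0 fell, and without 1 array 1 to 3 rose and 0 to 1 fell. Directions turned for Ezh1 (-0.26 within slide 2, -0.26 with brightness), Eed (-0.15 with normexp, -0.25 within slide 3), Ring1 (-0.016 within slide 2), Cbx7 (0.48 with the cell cycle score), Kdm2b (-0.10 within slide 3) and Ash1l (-0.19 with normexp). On the first scan day Ezh2 gave 0.57 (adjusted p = 0.213). Of the other Polycomb genes 9 rose and 1 fell. With normexp 5 and 3 did, within slide 1 1 rose, within slides 2 and 3 and with brightness 0 rose and 0 fell, with the cell cycle score 5 rose, with slide or scan day as a block or the first scan day 2 fell, and without 1 array 7 to 10 rose and 1 to 2 fell. Of the genes acting against Polycomb marks 2 rose, against 1 with normexp (1 fell) or with probes above background on all arrays, 0 within each slide and with brightness, and 2 to 3 without 1 array. Of the HOX genes 4 fell, against 14 with normexp, 2 with the all-array filter or brightness, 0 within slides 2 and 3, and 3 to 4 without 1 array. Ezh2 minus Ezh1 was -0.082 with normexp, Ezh2 minus Kdm6b 0.69 within slide 2, and Cbx7 minus Cbx6 -1.39 in number-coded samples and -1.43 to -1.04 without 1 array. In number-coded carcinomas r was -0.35 for Cbx7 and -0.86 for Ezh1 with the cell cycle score, -0.72 for Kdm6b with the immediate early score, -0.80 for Ezh2 with Ezh1 and -0.36 for Cbx7 with brightness. With slide as a block (added after seeing the data) r was -0.69 for Cbx7 with the cell cycle score, 0.061 for Kdm6b with the immediate early score and -0.059 for Cbx7 with brightness. With normexp r was -0.66 for Ezh2 with brightness and passed (adjusted permutation p = 0.0400). The cause of these moves, including the smaller number of arrays on a single slide and the normexp offset of 50 units, was not tested. With the replicate block 971 genes rose and 1342 fell, 2 of the 8 genes rose and 1 fell, and Ezh2 gave 0.57 (adjusted p = 0.172). Same-numbered samples, each set against its group mean, correlated at -0.11 to 0.24. This cannot tell whether same-numbered samples came from the same rat.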
